A study of Homo sapiens with 2 samples.

Results

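The cytochrome P450 genes were examined in the RNA-seq data of 2 lung cancer cell lines, H2087 and H596. A gene was taken as a member when its symbol consisted of CYP, a family number, a subfamily letter and a gene number, which was the case for 56 of the 27685 genes listed. Pseudogenes and readthrough genes, whose symbols carry further letters, were not members. One library was made from untreated H2087 cells and another from untreated H596 cells. Both are established human cell lines that carry the label lung adenocarcinoma, and both were grown in RPMI medium with fetal bovine serum and antibiotics. No agent, transgene or allele distinguished the libraries other than the cell line itself. The total estimated count was 46961500 for the H2087 library and 55387847 for the H596 library. With 1 library per cell line no value had a replicate check and no test between the lines was possible, so every difference given here compares 2 libraries. Intervals are at the 95% level and cover counting error only.

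P450 enzymes are heme-containing monooxygenases that insert 1 atom of oxygen into a substrate. Most sit in the endoplasmic reticulum and receive electrons from the reductase POR, while the mitochondrial forms receive them through FDXR and a ferredoxin. Some families act mainly on foreign compounds such as polycyclic hydrocarbons and drugs, and the others act on sterols, steroids, bile acids, vitamins A and D, or fatty acids and eicosanoids. In lung tissue they are known for turning constituents of tobacco smoke into reactive products, and the liver is the main site of most drug-metabolizing members.

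The labelled tumor type was checked first by its markers. The FPKM of NKX2-1, the lineage factor of alveolar cells, was 110.0 in H2087 against 0.508 in H596. Of the 8 markers of adenocarcinoma or alveolar type, 6 reached an FPKM of 1 in H2087 and 2 did so in H596. The summed FPKM of the 8 was 1192 and 711. The 2 in H596 were KRT7, at 791 and 608, and MUC1, at 86.0 and 102. They made up nearly all of the H596 sum. SFTPC was at 0 counts in H2087, and SFTPA1 and SFTPB were at 0 counts in H596. All 6 squamous markers were higher in H596, with a summed FPKM of 1.96 and 4034, and TP63 was at 0.183 and 55.2. The library labelled H596 therefore lacked most of the alveolar markers and carried the squamous ones. The differences between the P450 genes given below are differences between these 2 lines, and the part of the squamous and alveolar programs in them was not tested. Of the hepatocyte markers, ALB and TTR were at 0 counts in both libraries. APOA1 had 4 and 0 counts, and SERPINA1, which is not limited to liver, had an FPKM of 45.0 and 0.790. Of the stromal and blood markers, PTPRC and COL1A2 were at 0 counts in both, DCN was at 0 and 9.77, PECAM1 had 10 and 0 counts, and COL1A1 was at 3.89 and 0.916. Of the airway markers, SCGB3A1 was at 0 counts in both, SCGB1A1 was at 0 and 16.1, and FOXJ1 was at 9.07 and 0.331.

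Upstream sequences of 2 members are shown because they carry the letters by which the receptor AHR is known to reach P450 genes. AHR is activated by polycyclic hydrocarbons and dioxins, pairs with ARNT and binds the element TNGCGTG, where N is any base. CYP1A1 and CYP1B1 are its textbook targets. The elements are printed in capitals in GRCh37 sequence, 5′ to 3′ on the strand of the gene, so that an element on the other strand reads CACGCNA. The stretch of CYP1A1 was chr15:75018731-75018930 on the minus strand, from −979 to −780 relative to the first transcribed base. The stretch of CYP1B1 was chr2:38304086-38304285 on the minus strand, from −962 to −763.
CYP1A1: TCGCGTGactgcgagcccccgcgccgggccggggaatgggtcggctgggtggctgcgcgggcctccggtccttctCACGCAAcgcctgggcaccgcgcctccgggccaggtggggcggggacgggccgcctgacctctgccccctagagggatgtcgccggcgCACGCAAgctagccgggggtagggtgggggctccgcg
CYP1B1: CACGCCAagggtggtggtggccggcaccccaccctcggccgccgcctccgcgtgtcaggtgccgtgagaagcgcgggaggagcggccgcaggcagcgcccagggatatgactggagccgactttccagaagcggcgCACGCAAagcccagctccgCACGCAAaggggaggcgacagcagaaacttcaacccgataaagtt
Each of these stretches held 3 AHR elements. In the whole 1000 bases upstream, searched on both strands, CYP1A1 held 4 AHR elements and CYP1B1 held 3. CYP2C18 and CYP27A1 held 1 each, and the other 51 of the 55 members with a window held none. Over the 23484 windows of all genes, 17.5% held at least 1 element, 0.183% held at least 3 and 0.0213% held at least 4. CYP1A1 and CYP1B1 thus belonged to the 43 genes with at least 3. VDR and other nuclear receptors bind half-sites such as AGGTCA, which was searched with its variants AGTTCA, as well as GGGTCA, and with GGTTCA. At least 1 of these was found in 86.3% of all windows and in 48 of the 55 members, so their presence marked no gene out. Such matches describe the letters of a window and are not binding sites shown in these cells.

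**Figure D1:**
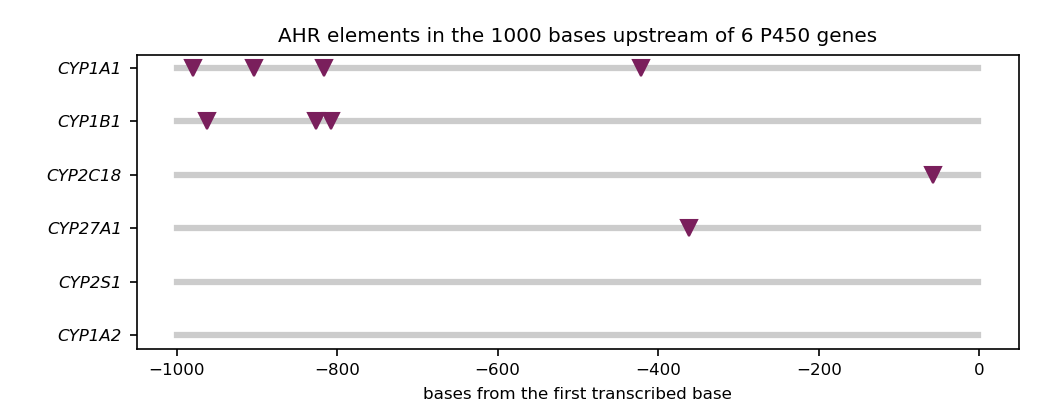
AHR elements (TNGCGTG on either strand, triangles) in the 1000 bases upstream of 6 P450 genes, with the distance from the first transcribed base in bases on the horizontal axis. CYP1A1 held 4 and CYP1B1 3 elements, CYP2C18 and CYP27A1 held 1, and CYP2S1 and CYP1A2 held none.

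Most P450 genes stayed below an FPKM of 1 in each library. An FPKM of at least 1 was reached by 11 members in H2087 (19.6%) and by 17 in H596 (30.4%). Among all listed genes the shares were 45.3% and 45.5%. A count of 0 was given for 27 of the 56 members in H2087 and 19 in H596, while 36.3% and 36.0% of all genes were at 0. In H596 the members' share at 0 was thus no higher than that of all genes. As these are bulk samples, fewer cells with a transcript and less RNA per cell cannot be told apart. The members at or above 1 were not the same in the 2 lines: 8 were so in both, CYP2J2, CYP24A1 and CYP27B1 in H2087 alone, and 9 in H596 alone. Of the 13793 listed genes at or above 1 in either line, 11349 were so in both, 1185 in H2087 alone and 1259 in H596 alone. Another 20 members had counts but stayed below 1 in both, and 16 were at 0 counts in both. Of all 27685 genes, 5482 had counts but stayed below 1 in both and 8410 were at 0 in both. An FPKM of 10 was reached by CYP51A1 and CYP27B1 in H2087 and by CYP2S1, CYP1A1, CYP51A1 and CYP1B1 in H596. No member reached an FPKM of 100 in either library. The members together took 0.0287% of the total count in H2087 and 0.0520% in H596, with a summed FPKM of 94.4 and 168.2. The leading gene was CYP51A1 in H2087, with 37.8% of the members' summed FPKM, and CYP2S1 in H596, with 37.0%.

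**Figure D2:**
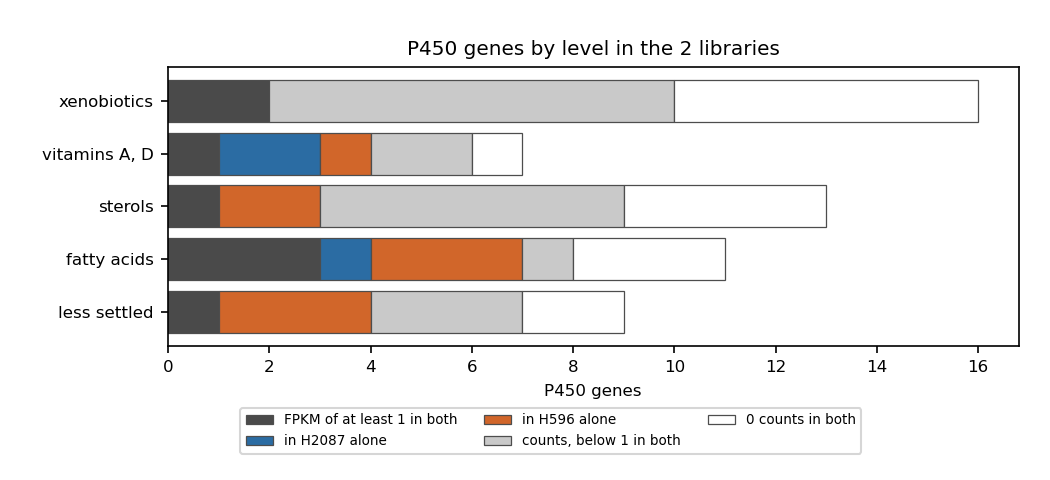
Number of P450 genes (horizontal axis) by substrate class and by level: FPKM of at least 1 in both libraries, in 1 library alone, counts below 1 in both, or 0 counts in both. Fatty acid P450s had the most genes at or above 1 in either library (7 of 11), while 14 of the 16 xenobiotic P450s were below 1 in both.

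The size of a difference was taken on the log2(FPKM + 1) scale, H596 minus H2087, for genes whose mean FPKM over both libraries was 1 or more. The difference of a low gene is understated by the 1 that is added. Of the 56 members 15 reached that mean. At least 2-fold higher in H596 were 9 of them and at least 2-fold lower were 3, with 3 in between. Over all 13048 genes with that mean, 32.4% differed by at least 2-fold, 18.2% upward in H596 and 14.2% downward. The median difference was 1.20 for the 15 members and 0.12 for all genes. A gene near 0 in 1 library could reach that mean only through the other library, and its call was then fixed by the filter. This held for CYP4F3, CYP4F12 and CYP26B1, which were near 0 in H2087, and for CYP24A1, which was near 0 in H596. The share of members past 2-fold is therefore not read as a trait of the P450 genes. The other 41 members, 25 of them with counts, were too low for this scale. Among them 9 had a count of 0 in H2087 and over 3 in H596, and 2 had the reverse. The same was not counted over all genes, and H596 had the larger total count. The 9 and 2 are therefore not read as a trait of the P450 genes.

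**Figure D3:**
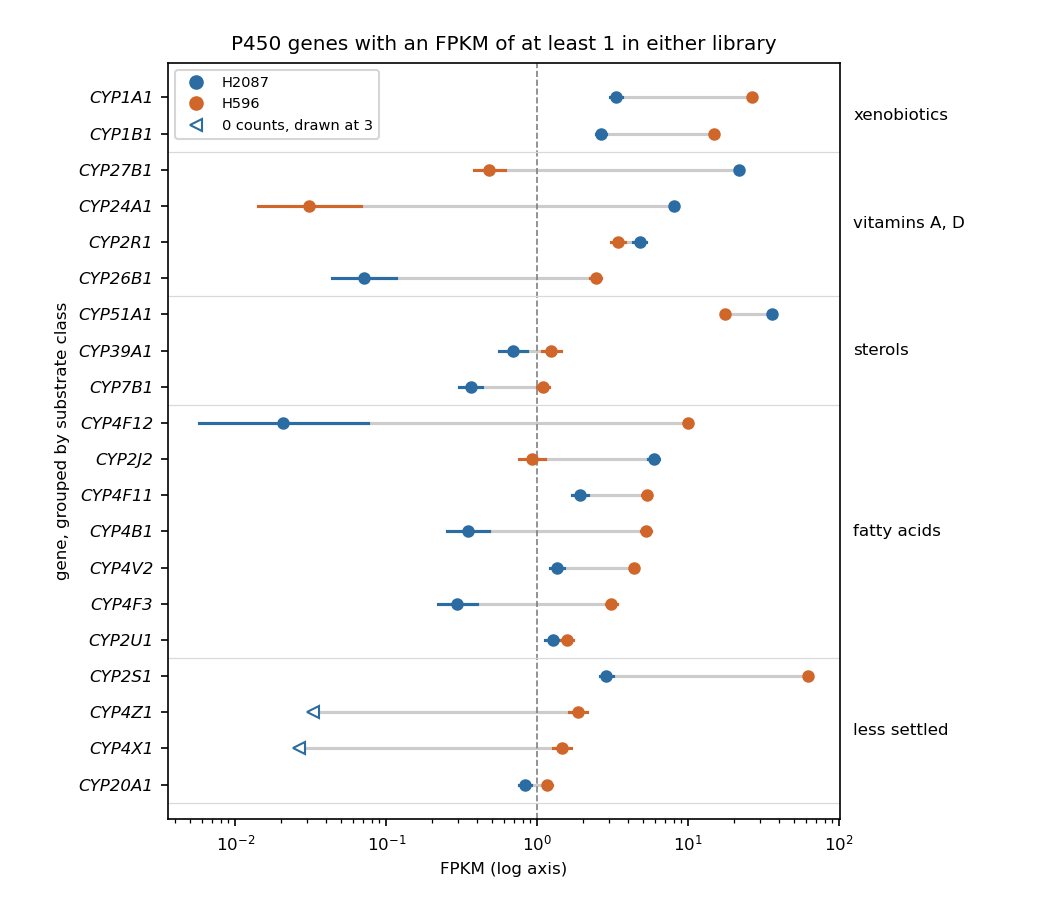
FPKM (horizontal log axis) of the 20 P450 genes with at least 1 in either library, in H2087 (blue) and H596 (orange), with 95% counting intervals as bars. Open triangles mark a count of 0, drawn at the FPKM of 3 counts. CYP4F12 and CYP24A1 were the furthest apart, on opposite sides.

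Among the xenobiotic P450s, the CYP1 genes were the expressed ones, and both were higher in H596. CYP1A1 (gene 1543, chr15:75011883-75017951, minus strand), which oxidizes polycyclic hydrocarbons, had 428 counts in H2087 and 4007 in H596. Its FPKM was 3.32 (3.02 to 3.65) and 26.3 (25.5 to 27.1), a 7.92-fold difference (7.17 to 8.77). CYP1B1 (gene 1545, chr2:38294746-38303323, minus strand), which also hydroxylates estrogens, had 651 and 4331 counts. Its FPKM was 2.63 (2.44 to 2.84) and 14.8 (14.4 to 15.3), a 5.63-fold difference (5.18 to 6.12). Both are the genes with 3 or more AHR elements in the sequences above. Of the 29 other genes within 1 Mb of CYP1A1 with a mean FPKM of at least 1, 22 were higher in H596. Their median difference was 0.46, against 0.12 for all genes. Near CYP1B1 it was 7 of 17, with a median of −0.06. The third member of the family, CYP1A2, lies beside CYP1A1 and is a liver enzyme, and it was at 0 counts in both libraries. At these depths a count of 0 allowed an FPKM of up to 0.0200 in H2087 and 0.0169 in H596. Of the 2 CYP1A1 transcripts with counts, NM_000499 was at 1.35 and 11.2 and NM_001319217 at 1.97 and 15.1, so that each took a like share of the gene in both lines.

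The other 14 xenobiotic P450s stayed below an FPKM of 1. CYP2E1, which oxidizes ethanol and small solvents, came closest with 0.347 in H2087 and 0.961 in H596. CYP2F1, a lung P450 that activates naphthalene, had 0 and 52 counts, an FPKM of 0.495 in H596 that was at least 14.6-fold higher against the limit of 3 counts in H2087. CYP3A4, the main hepatic drug oxidase, had 0 and 46 counts and was at least 13.0-fold higher in H596 by the same measure. CYP3A5 had 0 and 12 counts. CYP2D6 had 23 and 4 counts, and 51.0% of its 50-base words also occur in transcripts of other CYP genes, mainly CYP2D7, so its reads could not be placed with certainty. CYP2C8 had 2 and 23 counts and CYP2C18 had 4 and 10, whereas CYP2C19, CYP2A6 and CYP2B6 were at 0 in both lines. CYP2A13, a lung enzyme that activates a tobacco nitrosamine, had 0 and 3 counts. CYP3A7, the fetal hepatic form, was at 0 counts in both, but the readthrough gene CYP3A7-CYP3A51P, which shares 41.9% of the 50-base words of CYP3A7, had 0 and 144 counts, the latter an FPKM of 1.12.

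The AHR pathway did not differ in 1 direction throughout. AHR itself was higher in H596, at an FPKM of 18.4 and 48.5, which is 2.63-fold (2.55 to 2.71). Its partner ARNT was at 8.96 and 17.6, a difference of 0.90 that did not reach 2-fold on the log2(FPKM + 1) scale. The 2 AHR targets that restrain the receptor differed in opposite directions. AHRR was at 0.196 and 2.33, named after its values were seen, and TIPARP was at 30.7 and 12.1. Thus CYP1A1, CYP1B1, AHR and AHRR were higher in H596 and TIPARP was lower. The receptors NR1I2 and NR1I3, which induce CYP3A and CYP2 genes in liver, had 6 and 0 counts and 0 counts in both, and the hepatic factor HNF4A had 2 and 4 counts. CEBPA, another liver-enriched factor, was at 0.349 and 9.50 and was named after its values were seen.

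Of the 3 members at least 2-fold lower in H596, CYP27B1 and CYP24A1 are vitamin D P450s and CYP2J2 is a fatty acid P450. CYP27B1 (gene 1594, chr12:58156117-58160976, minus strand), the mitochondrial 1α-hydroxylase that makes active vitamin D, had 2583 counts in H2087 and 68 in H596. Its FPKM was 21.7 (20.8 to 22.5) and 0.480 (0.379 to 0.608), 45.1-fold higher in H2087 (35.5 to 58.3). CYP24A1 (gene 1591, chr20:52769988-52790516, minus strand), the 24-hydroxylase that inactivates vitamin D, had 1262 and 6 counts. Its FPKM was 8.06 (7.63 to 8.52) and 0.0310 (0.0142 to 0.0676), 260-fold higher in H2087 (119 to 710). All counts of CYP24A1 were on NM_000782. The enzymes that make and that remove the active hormone were thus both higher in H2087. CYP2R1, the microsomal 25-hydroxylase that acts before CYP27B1, had 371 and 315 counts and an FPKM of 4.78 (4.32 to 5.29) and 3.43 (3.07 to 3.83). It differed by 0.38 on the log2(FPKM + 1) scale, less than 2-fold. CYP27A1, which can also 25-hydroxylate vitamin D, had 52 and 30 counts. VDR, the receptor of active vitamin D, of which CYP24A1 is the textbook target, was higher in H2087, at 14.1 and 4.31, and its partner RXRA was higher in H596, at 8.75 and 33.6.

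The surroundings of the CYP27B1 gene differed in the same direction. Of the 33 other genes within 1 Mb with a mean FPKM of at least 1, 28 were lower in H596, with a median difference of −1.66 against 0.12 for all genes. The difference of CYP27B1 itself was −3.94. Near CYP24A1 there were 3 such genes with a median of 0.34, while CYP24A1 was at −3.14. Whether the CYP27B1 value moved with its region was not tested.

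Among the vitamin A P450s the directions were mixed, and CYP26B1 was the only one with a mean FPKM of at least 1. CYP26B1 (gene 56603, chr2:72356367-72374991, minus strand), which hydroxylates and so clears retinoic acid, had 16 and 630 counts. Its FPKM was 0.0714 (0.0439 to 0.116) and 2.43 (2.25 to 2.63), 34.1-fold higher in H596 (20.8 to 60.0). CYP27C1, which desaturates retinol, had 0 and 121 counts and was at least 34.1-fold higher in H596. CYP26A1, the other main retinoic acid hydroxylase, had 18 and 0 counts, at least 7.10-fold higher in H2087, and CYP26C1 was at 0 in both. CYP26B1 stood beside the retinoid genes: of the 10 retinoid handling genes listed, 7 had a mean FPKM of at least 1 and all 7 were at least 2-fold higher in H596, with a median difference of 2.91, where 18.2% of all genes were higher by that much. Named after their values were seen, STRA6, the retinol uptake receptor, was at 1.84 and 52.8, LRAT, which esterifies retinol, at 0.517 and 22.7, and ALDH1A3, which makes retinoic acid, at 30.1 and 180.2. CRABP1 and ALDH1A1 were at 0 counts in both, and ALDH1A2 had 3 and 22 counts. Of the retinoic acid receptors RARG was at 33.2 and 38.1, RARA at 7.51 and 8.19, and RARB, itself a known target of retinoic acid, at 0 and 5.67.

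Among the sterol, steroid and bile acid P450s a single gene made up nearly all of the expression. CYP51A1 (gene 1595, chr7:91741463-91764059, minus strand), the lanosterol demethylase of cholesterol synthesis, had 5435 and 3127 counts. Its FPKM was 35.7 (34.8 to 36.7) and 17.6 (17.0 to 18.2), 2.04-fold higher in H2087 (1.95 to 2.13). On the log2(FPKM + 1) scale the difference was −0.99, just short of 2-fold. The transcripts shared this difference unequally. NM_000786 was at 31.0 and 13.1 and NM_001146152 at 4.76 and 4.49, so the second took 13.3% of the gene in H2087 and 25.6% in H596. Other CYP transcripts, mainly those of the pseudogene CYP51A1P2, share 13.5% of its 50-base words. SREBF2, the factor that drives cholesterol synthesis genes, was at 41.4 and 29.9, less than 2-fold apart.

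CYP7B1 and CYP39A1, the 2 oxysterol 7α-hydroxylases, were at low levels in both lines. CYP7B1 had 131 and 452 counts and an FPKM of 0.362 and 1.09, a ratio of H596 to H2087 with a counting interval of 2.46 to 3.67, and CYP39A1 had 82 and 171 counts and an FPKM of 0.693 and 1.24, 1.79-fold (1.37 to 2.36). CYP39A1 counts lay on NM_016593 alone in H2087 and also on NM_001278738 in H596, at 0.435. The steroid-making P450s were close to absent. CYP11A1, which makes pregnenolone from cholesterol, had 47 counts in H2087 and 0 in H596 and was at least 18.5-fold higher in H2087, at an FPKM of 0.489. CYP17A1 had 0 and 2 counts, CYP19A1 (aromatase) 2 and 0, and CYP46A1 0 and 14. CYP21A2, which has a near-identical pseudogene, had 7 and 29. CYP7A1, CYP8B1, CYP11B1 and CYP11B2 were at 0 counts in both lines.

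The fatty acid and eicosanoid P450s held the most members with expression, 7 of 11, and 5 of these were at least 2-fold higher in H596. All 5 belong to the CYP4 family, whose enzymes mostly oxidize fatty acids at the end of the chain. CYP4F12 (gene 66002, chr19:15783828-15807984, plus strand) had 2 counts in H2087 and 1043 in H596. Its FPKM was 0.0208 (0.00571 to 0.0759) and 9.91 (9.33 to 10.5), a ratio of 476 with a counting interval of 131 to 3937. CYP4B1 (gene 1580, chr1:47264670-47285021, plus strand), a lung-expressed enzyme that also activates furans, had 36 and 644 counts. Its FPKM was 0.348 (0.251 to 0.482) and 5.25 (4.86 to 5.67), 15.1-fold higher in H596 (10.8 to 21.7). CYP4F3, which inactivates leukotriene B4, had 43 and 524 counts and an FPKM of 0.295 and 3.09, 10.5-fold higher (7.67 to 14.6). CYP4F11, known for vitamin K and long-chain fatty acids, was at 1.92 and 5.31, which is 2.77-fold (2.42 to 3.17). CYP4V2, a fatty acid hydroxylase of retina and other tissues, had 305 and 1172 counts and was at 1.35 and 4.39, which is 3.25-fold (2.87 to 3.70).

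The transcripts of the CYP4 genes differed in how the counts were divided. CYP4F12 counts in H596 lay on NM_023944 at 6.79 and on the noncoding NR_117085 at 3.12, and the 2 counts of H2087 lay on NR_117085. CYP4B1 was read from NM_001099772 alone in H2087, at 0.348, and from this and NM_000779 in H596, at 3.50 and 1.75. CYP4F3 was on NM_001199208 alone in H2087, at 0.295, and on NM_001199208 and NM_001199209 in H596, at 2.02 and 1.07. In CYP4F11 the longer NM_021187 was the one transcript that was lower in H596, at 0.470 and 0.202, while NM_001128932 was at 1.45 and 5.11. These splits are estimates from transcripts that overlap over much of their length.

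The 2 CYP2 genes of the class did not share the direction and size seen in the CYP4 genes. CYP2J2 (gene 1573, chr1:60358980-60392470, minus strand), the epoxygenase of arachidonic acid, had 543 and 101 counts. Its FPKM was 5.91 (5.43 to 6.43) and 0.927 (0.763 to 1.13), 6.38-fold higher in H2087 (5.15 to 7.97). The noncoding NR_134982 and NR_134981 were at 0.879 and 0.469 in H2087, and 99.3% of the gene in H596 was NM_000775. CYP2U1 had 290 and 424 counts and an FPKM of 1.27 and 1.57, a difference of 0.18. CYP4A11, CYP4F2 and CYP4F22 were at 0 counts in both lines, and CYP4F8 had 0 and 4. Of the P450 genes whose symbols do not start with CYP, TBXAS1 (thromboxane synthase) had 345 counts in H2087 and 0 in H596, and PTGIS (prostacyclin synthase) had 2 and 0. TBXAS1 was named after its values were seen.

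CYP2S1 (gene 29785, chr19:41699112-41713444, plus strand), an extrahepatic P450 of epithelia whose substrates are less settled, was the highest member in H596. It had 361 counts in H2087 and 9274 in H596. Its FPKM was 2.87 (2.59 to 3.18) and 62.3 (61.0 to 63.6), 21.7-fold higher in H596 (19.5 to 24.2), and among all listed genes it ranked 10297 and 1149. Of the 36 other genes within 1 Mb with a mean FPKM of at least 1, 31 were higher in H596, with a median difference of 1.08 against 0.12 for all genes, while CYP2S1 itself was at 4.03. CYP2S1 is known to respond to AHR, but its upstream window held no TNGCGTG and 2 copies of the shorter GCGTG, which 66.4% of all windows hold. In the same class CYP4X1 had 0 and 195 counts and CYP4Z1 had 0 and 202. They were at least 54.9-fold and at least 56.9-fold higher in H596 and reached an FPKM of 1.46 and 1.87 there. Both lie near CYP4B1 on chromosome 1, in the order CYP4B1, CYP4X1, CYP4Z1. Of the 20 other genes within 1 Mb of CYP4B1 with a mean FPKM of at least 1, 18 were higher in H596, with a median difference of 0.77. Near CYP4Z1 it was 17 of 19, with a median of 0.89, and these are largely the same genes because the windows overlap. In addition, 27.1% of the 50-base words of CYP4Z1 occur in the pseudogene CYP4Z2P, which was at 0 counts in both. The 2 CYP4A genes between and beside them, CYP4A11 and CYP4A22, were at 0 in both. CYP20A1, an orphan P450, had 438 and 724 counts and an FPKM of 0.834 and 1.17, 1.40-fold (1.24 to 1.58). CYP2W1 had 0 and 23 counts, CYP2D7 43 and 28 and CYP2A7 4 and 3, and CYP3A43 was at 0 in both.

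**Figure D4:**
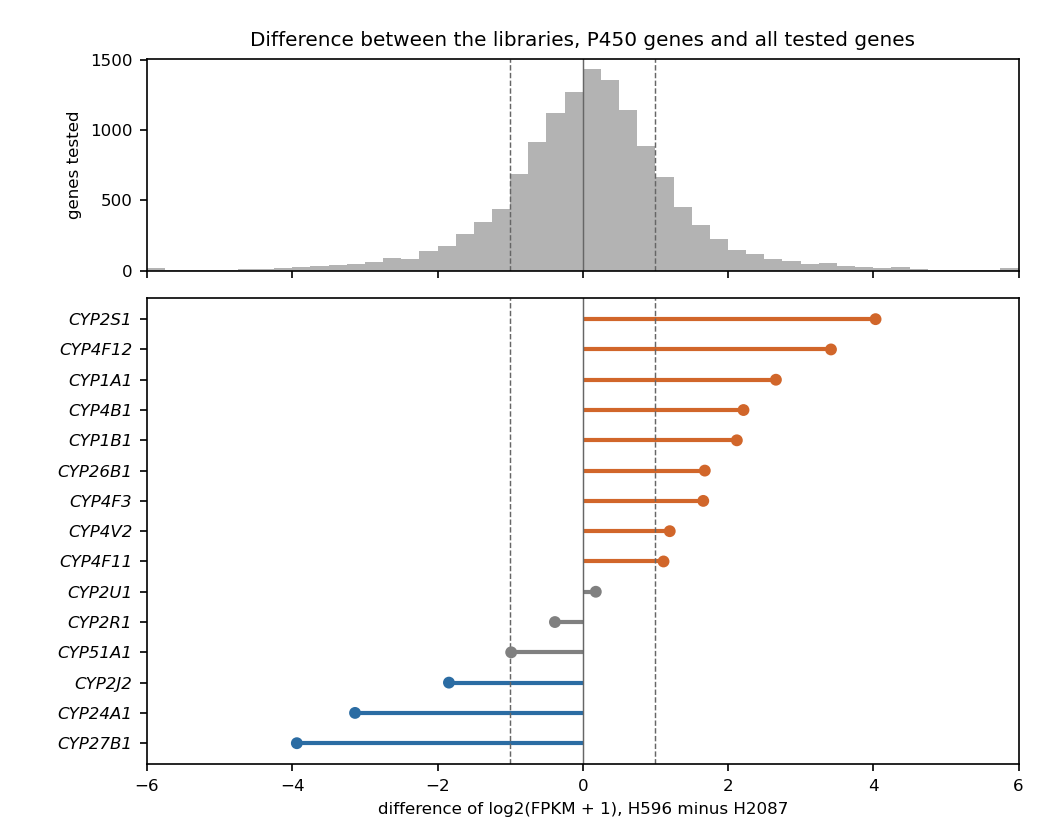
Top, number of genes by difference of log2(FPKM + 1), H596 minus H2087, for the 13048 genes whose mean FPKM was 1 or more, with values beyond the axis counted in the end bars. Bottom, the 15 P450 genes with that mean, of which 9 lay above the 2-fold line (dashed) and 3 below its counterpart.

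By family, the 12 CYP4 members had FPKM sums of 3.93 (H2087) and 31.3 (H596), and 7 of the 12 reached an FPKM of 1 in H596 against 2 in H2087. The 6 CYP4F genes, which lie within chr19:15619336-16045676, summed to 2.24 and 18.3. Neighbours of these genes within 1 Mb had medians of 0.37 to 0.42, against 0.12 for all genes, and CYP4F2 and CYP4F22 within the cluster stayed at 0 counts. Higher in H596 were 17 of the 20 neighbours of CYP4F3, 18 of the 21 of CYP4F12 and 19 of the 22 of CYP4F22. These windows overlap and hold largely the same genes, so the counts are not separate observations. CYP1 summed to 5.95 and 41.1 over 3 genes and CYP2 to 15.9 and 70.4 over 17 genes, of which CYP2S1 gave most in H596. The 4 CYP3 genes summed to 0 and 0.347. The 4 CYP2C genes summed to 0.0533 and 0.268, and the 3 CYP2A genes to 0.0366 and 0.0355. The liver clusters were thus close to absent in both lines. Of the 4 hepatocyte markers, ALB and TTR were at 0 counts in both and APOA1 had 4 and 0 counts. SERPINA1, which is not limited to liver, was at 45.0 in H2087 and 0.790 in H596.

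Summed by substrate class, the 2 lines differed in opposite directions. The 16 xenobiotic P450s summed to 6.64 in H2087 and 43.3 in H596, a ratio of H596 to H2087 of 6.51 (6.12 to 6.93), and to 3.32 and 16.9 without CYP1A1. The 11 fatty acid P450s summed to 11.1 and 30.5, a ratio of 2.74 (2.59 to 2.91), and to 11.1 and 20.6 without CYP4F12. The 9 P450s of less settled substrates summed to 4.12 and 67.2, a ratio of 16.3 (15.2 to 17.5), and to 1.25 and 4.88 without CYP2S1. In counts scaled to the library total that ratio was 10.5, outside this interval, which covers counting error alone. The 7 vitamin P450s summed to 34.7 and 6.83, 5.09-fold higher in H2087 (4.76 to 5.43), and to 13.1 and 6.35 without CYP27B1. Of these remaining sums CYP24A1 gave 8.06 and 0.0310. The direction of the vitamin class thus rested on CYP27B1 and CYP24A1 together. The 13 sterol P450s summed to 37.8 and 20.5, 1.85-fold higher in H2087 (1.77 to 1.92). Without CYP51A1 their sums were 2.09 and 2.92, so the direction of this class rested on that 1 gene.

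**Figure D5:**
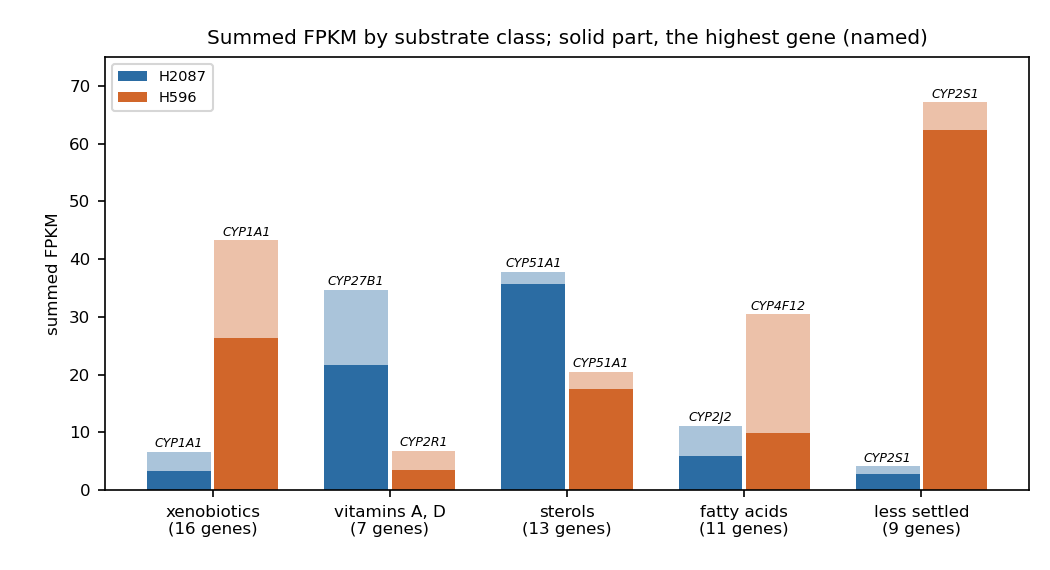
Summed FPKM (vertical axis) of the P450 genes of each substrate class in H2087 (blue) and H596 (orange). The solid part of each bar is the highest gene of that class in that library, which is named above the bar, and 1 gene made up at least 32.5% of every bar.

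The genes that work with the P450 enzymes were counted by list, against 18.2% of all genes higher in H596 and 14.2% lower. All 10 redox partners had a mean FPKM of at least 1, and 2 were at least 2-fold higher in H596, none lower and 8 neither, with a median difference of 0.01. POR, the electron donor of the microsomal P450s, was at 42.7 and 31.1, and CYB5A at 86.5 and 47.4. The 2 that were higher belong to the mitochondrial electron chain: FDXR was at 6.97 and 19.0 and FDX1L, a ferredoxin known mainly for iron-sulfur cluster assembly, at 7.83 and 24.2, while FDX1, the ferredoxin of steroid making, was at 15.4 and 13.1. The mitochondrial CYP27B1 and CYP24A1 were lower in H596, where FDXR was higher and FDX1 was within 2-fold. A relation between these levels was not tested. Of the 10 genes of heme synthesis and breakdown 1 was lower in H596 and 9 were within 2-fold, with a median of −0.04. The lower one, named after its values were seen, was HMOX1, the inducible heme oxygenase, at 21.0 and 1.85. Of the 20 regulators 13 had a mean FPKM of at least 1, and of these 5 were higher in H596 (AHR, AHRR, RXRA, RARB and CEBPA), 3 lower (TIPARP, VDR and NR1H3) and 5 neither, with a median of 0.22. NR1H3, a sterol-sensing receptor that was also named after its values were seen, was at 5.59 and 2.25.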

How the data were processed

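RNA-seq data of 1 library of untreated H2087 cells and 1 of untreated H596 cells were used. The authors made stranded mRNA libraries from total RNA, and the submitters' processing notes name bcl2fastq 1.8.4, Trimmomatic, HISAT2 2.0.5, StringTie 1.3.3b and GRCh37 (hg19). The authors deposited an estimated count and an FPKM for each of 27685 genes and 63714 transcripts of RefSeq. The deposited estimated counts are whole numbers that follow FPKM and length by 1 factor per library, so they were taken as rounded estimates from coverage. The deposited FPKM values are relative to transcript length and library size. The strand setting of the counting and whether reads were paired are not given in the sources used here. Counting both mates of a pair would make the true intervals wider.

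Members were taken by symbol, and the substrate classes, partner lists and markers were chosen with earlier results of these data known. Members with an FPKM of at least 1 in either library were named in full, transcripts were named for those with at least 2 listed, and redox partners and regulators with an FPKM of at least 10 could be named. Other genes of the lists and the markers were named after their values were seen. A few items are counted in the totals but not reported by name here. Differences were taken on log2(FPKM + 1) among genes whose mean FPKM was 1 or more and called at 2-fold. No test was run, since each cell line had 1 library. Intervals of FPKM are 95% Wilson intervals of the share of the total count. Those of a gene's ratio are exact (Clopper-Pearson) given the sum of both counts (scipy 1.17.1). The limit for a count of 0 was 3 counts per library. For a class, the exact interval of the summed counts was rescaled to the ratio of summed FPKM. TMM scaling (R 4.3.3 with edgeR 4.0.16), TPM, centring, a pseudocount of 0.1 and other thresholds were alternatives. The scripts were tested on simulated data. Upstream windows of 1000 bases were read from GRCh37 at the deposited positions, and words of 50 bases were compared between the transcripts of CYP genes and pseudogenes in GENCODE release 44 on that build. Tables were handled in pandas 2.3.3 and numpy 2.4.6 under Python 3.11.15.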

Additional observations from a re-analysis of the deposited data

How the results depend on the processing

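Each named member kept its sign in all 100 alternatives, and 7 lay on the other side of 2-fold. Not all of the 100 could have changed a sign. A pseudocount of 0.1 cannot do so, and summing the FPKM over a gene's transcripts left the value of each named member as it was. Only TPM, TMM scaling and centring bear on the sign. CYP51A1 passed 2-fold at −1.02 with a pseudocount of 0.1, −1.15 with TMM-scaled counts and −1.10 after centring. CYP7B1 passed it at 1.36 with the pseudocount of 0.1, 1.03 in TPM and 1.16 with TMM scaling, and CYP4F11 fell just below it after centring. The counts of calls moved by less than 1.5 times with the pseudocount, the filters, TPM, TMM scaling and centring. The median difference of all genes was 0.12 in FPKM, 0.30 in TPM and 0.01 with TMM scaling, and the share of all calls that were higher in H596 was 56.2%, 65.6% and 50.5%. Of the members' calls, 75%, 75% and 69.2% were higher. With TMM-scaled counts, 0.5 added and at least 10 counts, chosen after seeing the data, 21 members were higher and 8 lower of 35, while 46.8% of all genes passed 2-fold and 50.6% of those were higher.

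An FPKM of at least 2 was reached by 11 members in H596 and by 5 in both lines, and a count of at least 10 by 23 in H2087, 31 in H596 and 19 in both. In TPM the ratio of summed levels, H596 to H2087, was 7.40 for xenobiotics, 3.11 for fatty acids, 18.5 for less settled substrates, 0.223 for vitamins and 0.615 for sterols. Each of these TPM ratios lay outside the counting interval of the summed FPKM ratio. In counts scaled to the library total the ratio was 10.5 for less settled substrates and 0.227 for vitamins, both also outside that interval. Without the highest member of the class, chosen after seeing the data, it was 5.10, 1.85, 3.92, 0.486 and 1.40 in the order of the TPM values, so the sterol class turned. No paired analysis was possible because H2087 and H596 had 1 library each, which also meant that no library could be left out. Levels below about 3 counts could not be told from 0 at these depths. Members that share sequence with paralogs or pseudogenes are uncertain, among them CYP2D, CYP3A7, CYP4Z1, CYP2A, CYP4A and CYP21A2. Smaller shares of 50-base words, such as 11.4% for CYP2F1 and 8.13% for CYP4F3, leave part of their counts uncertain as well.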
